A study of Mus musculus with 6 samples.

Results

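The genes described here were 40 genes of skeletal muscle, taken by symbol from a given list, and all 40 were found among the 24062 genes of the deposited count data. They fell into 4 classes by the fibre in which their product is best known. The fast class held 13 genes (Myh1, Myh2, Myh4, Actn3, Myl1, Mylpf, Tnnc2, Tnni2, Tnnt3, Atp2a1, Casq1, Mybpc2 and Myoz1) and the slow class held 11 (Myh7, Myl2, Myl3, Tnnc1, Tnni1, Tnnt1, Tpm3, Atp2a2, Casq2, Mybpc1 and Myoz2). The developmental class held 3 genes (Myh3, Myh8 and Actc1), and 13 genes shared by all striated fibres made up the last class (Ttn, Neb, Acta1, Actn2, Tpm1, Tpm2, Ckm, Mb, Des, Ryr1, Myot, Ldb3 and Tcap).

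RNA-seq was performed on bulk nerve tissue and tumors of mice of the C57BL/6-I129 background, with 3 libraries per genotype, to learn how loss of the transcription factors Runx1 and Runx3 changes expression in a mouse model of neurofibroma. The first genotype was Nf1fl/fl;DhhCre (called Nf1 here), labelled as dorsal root ganglion (DRG). The second was labelled Rx1flfl;Rx3fl/fl;DhhCre and neurofibroma tumor (called double knockout, DKO), and the extraction protocol adds Nf1fl/fl to this genotype and gives the tissue of both as DRG/tumors. DhhCre drives recombination from the Dhh promoter in the Schwann cell lineage, and recombination in each cell type was not measured in these data. Tissue label and genotype cannot be told apart, and age was not given in the sources used here.

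Skeletal muscle fibres are built from sarcomeres, in which thick filaments of myosin pull on thin filaments of actin, and titin (Ttn) and nebulin (Neb) act as molecular rulers. Fast fibres and slow fibres use different members of the same protein families, among them the myosin heavy chains, the troponins and the calcium pumps. Embryonic and perinatal myosins and cardiac actin are made in developing and regenerating fibres and are largely replaced in the adult. DRGs lie beside the spine, next to skeletal muscle, and none of their own cell types is known to build sarcomeres.

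Total counts per library ranged from 12439296 to 16682194, with medians of 15077965 in Nf1 and 12813735 in DKO, and every pair of replicates differed by more than sampling noise. Runx1 was at 131, 141 and 171 CPM (TMM-scaled counts relative to the library total) in Nf1 replicates 1, 2 and 3 and at 83.9, 78.9 and 185 CPM in DKO replicates 1, 2 and 3. The library labelled DKO replicate 3 was therefore the highest of all 6, against its label, although these counts cover the whole gene and not the deleted exons alone. Runx3 was at 19.9, 15.1 and 29.9 CPM in Nf1 and at 13.5, 10.3 and 12.1 CPM in DKO. One library came from another sequencing run than the other 5, and the labels disagree whether it was DKO replicate 2 or 3, because the numbers that name these 2 libraries, and those of Nf1 replicates 1 and 2, are swapped between the titles and the data. The genotype of each library is the same under either reading. The labels give each library its own number but do not say that these are separate mice, so p-values measure only the spread between these samples, which may be technical.

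The 3 adult fast myosin heavy chains are made from neighbouring genes on chromosome 11, namely Myh2 (chr11:67171027-67197517), Myh1 (chr11:67200052-67224575) and Myh4 (chr11:67238029-67260446), all on the plus strand of GRCm38. Their coding sequences are near copies, and this bears on how reads are divided among them. Identity was 90.9% between Myh1 and Myh2, 90.1% between Myh1 and Myh4 and 88.1% between Myh2 and Myh4 over the aligned coding bases. The first 60 coding bases of each are shown 5′ to 3′ from the GENCODE M21 transcripts. Capitals mark the 4 positions that are not the same in all 3 genes.
Myh1: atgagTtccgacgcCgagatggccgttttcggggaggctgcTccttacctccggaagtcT
Myh2: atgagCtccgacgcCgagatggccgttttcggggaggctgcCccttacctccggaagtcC
Myh4: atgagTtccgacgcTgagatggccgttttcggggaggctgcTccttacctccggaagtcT

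A read of 50 bases cannot be assigned by sequence where the same bases occur in another gene. Such windows made up 32.1% of the longest coding transcript of Myh1, 28.9% of Myh2, 18.9% of Myh4, 28.2% of Myh7 (with the most matches in the cardiac gene Myh6) and 21.4% of Myh8. For Tpm3 the share was 62.4%, with the most matches in Tpm3-rs7, and for Mb and Myl1 it was 34.0% and 23.4%. Exons of Tnnc2 and Atp2a1 lie opposite those of Ube2c and Rabep2 over 592 and 763 bases. Whether the counting used strand was not stated, so antisense reads cannot be told apart there, and values of these genes are uncertain to that extent. Ttn shared 0.198% of its windows, and 21 of the 40 genes shared less than 1%.

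The upstream sequences of Myh4, Atp2a1, Acta1 and Ttn are shown because, of the 32 members matched to the RefSeq promoter table, these genes had the highest mean CPM per kilobase of exon over the 6 libraries, at 252, 156, 80.2 and 77.6. Myh4 was at 1366 per kilobase in DKO replicate 2 and at most 6.19 in the libraries other than replicate 2. Each upstream sequence is the 250 bases before the start that the RefSeq table (GRCm38.p6) gives, 5′ to 3′ on the gene's strand, and this start need not be that of the GENCODE gene. The first transcribed bases of the table's entry were found in the longest coding GENCODE transcript for 16 of 32 members. Capitals mark the E-box letters CANNTG, to which the myogenic factors of the MyoD family are known to bind.
Myh4, chr11:67237562-67237811, plus strand: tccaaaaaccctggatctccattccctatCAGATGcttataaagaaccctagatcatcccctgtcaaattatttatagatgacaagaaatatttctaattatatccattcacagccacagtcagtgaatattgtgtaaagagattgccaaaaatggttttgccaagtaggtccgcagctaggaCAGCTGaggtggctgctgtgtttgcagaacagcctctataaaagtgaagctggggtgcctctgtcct
Atp2a1, chr7:126463074-126463323, minus strand: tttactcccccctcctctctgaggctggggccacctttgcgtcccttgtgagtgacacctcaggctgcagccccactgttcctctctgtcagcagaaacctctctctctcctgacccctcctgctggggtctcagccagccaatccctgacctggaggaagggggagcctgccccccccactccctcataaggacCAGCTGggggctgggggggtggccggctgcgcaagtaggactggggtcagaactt
Acta1, chr8:123894776-123895025, minus strand: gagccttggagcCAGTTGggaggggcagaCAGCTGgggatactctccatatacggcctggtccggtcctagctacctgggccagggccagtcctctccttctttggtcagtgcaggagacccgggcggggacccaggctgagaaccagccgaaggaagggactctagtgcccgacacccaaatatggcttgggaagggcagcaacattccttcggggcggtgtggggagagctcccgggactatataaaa
Ttn, chr2:76982548-76982797, minus strand: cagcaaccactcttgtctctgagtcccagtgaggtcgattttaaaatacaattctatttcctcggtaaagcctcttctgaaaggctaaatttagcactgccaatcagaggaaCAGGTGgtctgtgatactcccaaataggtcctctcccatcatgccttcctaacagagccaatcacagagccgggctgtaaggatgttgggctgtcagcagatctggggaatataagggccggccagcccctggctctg

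These 4 windows held 2, 1, 2 and 1 E-boxes. Of the 32 members with a promoter entry, 84.4% held an E-box on either strand, against 69.3% of all 27025 genes with an entry. The MEF2 element (both strands) was found in 18.8% of the 32 members, against 3.42% of all genes, and among the windows shown it was in those of Myh4 and Ttn. The CArG box of serum response factor (both strands) was found in 15.6% against 1.62%, and was in the windows of Myh4 and Acta1. The letters TATAAA on the sense strand were found in 15.6% against 8.94%, and these were in the same pair of windows. A match is a description of letters and not of a bound site. The members outside these 32 were Neb, Actn3, Tnni2, Tnnt3, Atp2a2, Myot, Myoz1 and Tcap.

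Muscle genes were far higher in 1 library of each genotype than in the other 2. The 40 genes took 0.164%, 2.62% and 0.0999% of all counts in Nf1 replicates 1, 2 and 3 (exact Clopper-Pearson 95% intervals 0.162 to 0.166, 2.62 to 2.63 and 0.0983 to 0.101%). In DKO replicates 1, 2 and 3 they took 0.115%, 6.06% and 0.139% (0.113 to 0.117, 6.04 to 6.07 and 0.137 to 0.141%). These intervals, like every interval on counts given here, cover counting error only, and amplified reads are not independent molecules. Replicate 2 of each genotype was the highest, with DKO replicate 2 above Nf1 replicate 2, and the genotypes overlapped. All 3 Nf1 libraries came from the same sequencing run, and whether DKO replicate 2 did cannot be told from the labels, so the part of the sequencing run was not tested. In bulk tissue, fewer muscle fibres and less muscle RNA per fibre cannot be told apart.

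Ttn, which encodes the giant spring protein of the sarcomere (chr2:76703980-76982547, minus strand), was at 514, 16423 and 88.0 CPM in Nf1 replicates 1, 2 and 3 and at 234, 36830 and 339 CPM in DKO replicates 1, 2 and 3, the order used for all values that follow. It alone made up 1.65% of the counts of Nf1 replicate 2 and 3.50% of those of DKO replicate 2. The highest library was 418-fold above the lowest, Nf1 replicate 3, and replicate 2 stood 32.0-fold above the next library in Nf1 and 109-fold above it in DKO. Nebulin (Neb), the thin filament ruler, was at 154, 3624 and 59.7 CPM in Nf1 and at 75.1, 7989 and 108 CPM in DKO. It followed the same order of libraries within each genotype as Ttn.

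Nf1 replicate 2 and DKO replicate 2 were the 2 highest libraries for 30 of the 40 genes, 29 of them among the 35 that passed the filter on low counts. Among all 15652 genes tested, 4.29% had these libraries as the 2 highest. The pattern held for 13 of 13 fast genes and 13 of 13 shared genes, for 4 of 11 slow genes (Myl3, Tnni1, Mybpc1 and Myoz2) and for 0 of 3 developmental genes. Myl3 and Tnni1 had only 10 counts each in DKO replicate 2, and Tnni1 had 9 to 11 in the libraries other than replicate 2. DKO replicate 2 was the highest library for 24 genes and Nf1 replicate 2 for 12. At the other end, Nf1 replicate 3 was the lowest library, alone or tied, for 26 genes.

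**Figure D1:**
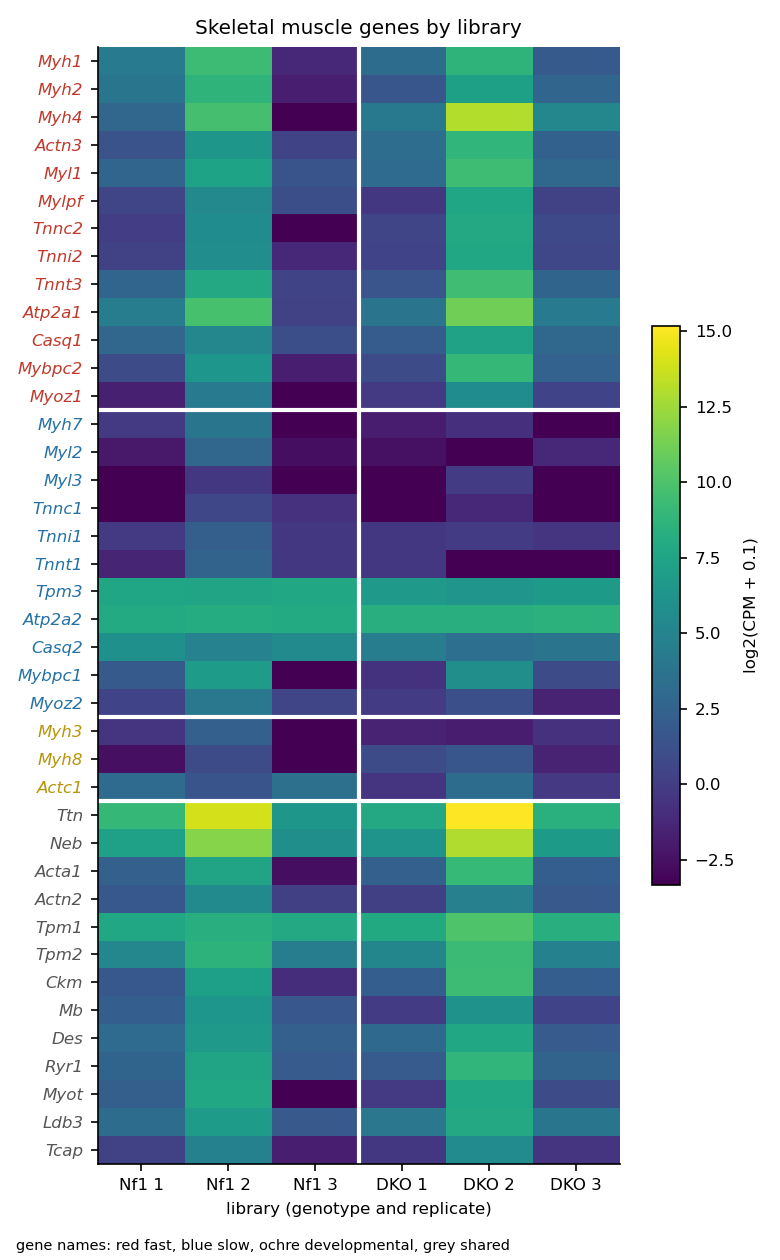
Level of each of the 40 muscle genes (rows, in the 4 classes) in each of the 6 libraries (columns), as log2(CPM + 0.1). Replicate 2 of either genotype is the brightest for the 13 fast and 13 shared genes, whereas Tpm3, Atp2a2 and Casq2 of the slow class do not peak in replicate 2 of both genotypes and range from 79.7 to 221, 249 to 382 and 10.8 to 62.3 CPM.

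The classes differed in how far replicate 2 stood out. Fast genes summed to 91.0, 3565 and 11.6 CPM in Nf1 and to 75.4, 14295 and 104 CPM in DKO. Genes of the shared class summed to 973, 21837 and 418 CPM in Nf1 and to 623, 48987 and 832 CPM in DKO. In both classes replicate 2 was the highest of its genotype by more than 1 order of magnitude.

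Slow genes summed to 503, 643 and 525 CPM in Nf1 and to 439, 463 and 506 CPM in DKO, where DKO replicate 2 was not the highest. Most of this sum came from Tpm3 and Atp2a2, a tropomyosin and a calcium pump that many cell types other than muscle also make. Without them, the slow class summed to 69.2, 192 and 46.4 CPM in Nf1 and to 24.6, 72.3 and 17.1 CPM in DKO, and replicate 2 was the highest of each genotype. Developmental genes summed to 9.35, 9.52 and 11.1 CPM in Nf1 and to 2.63, 12.3 and 1.52 CPM in DKO, and the genotypes overlapped. Without Actc1 they summed to 0.69, 6.78 and 0 CPM in Nf1 and to 1.99, 3.20 and 0.79 CPM in DKO, with replicate 2 the highest of each genotype.

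**Figure D2:**
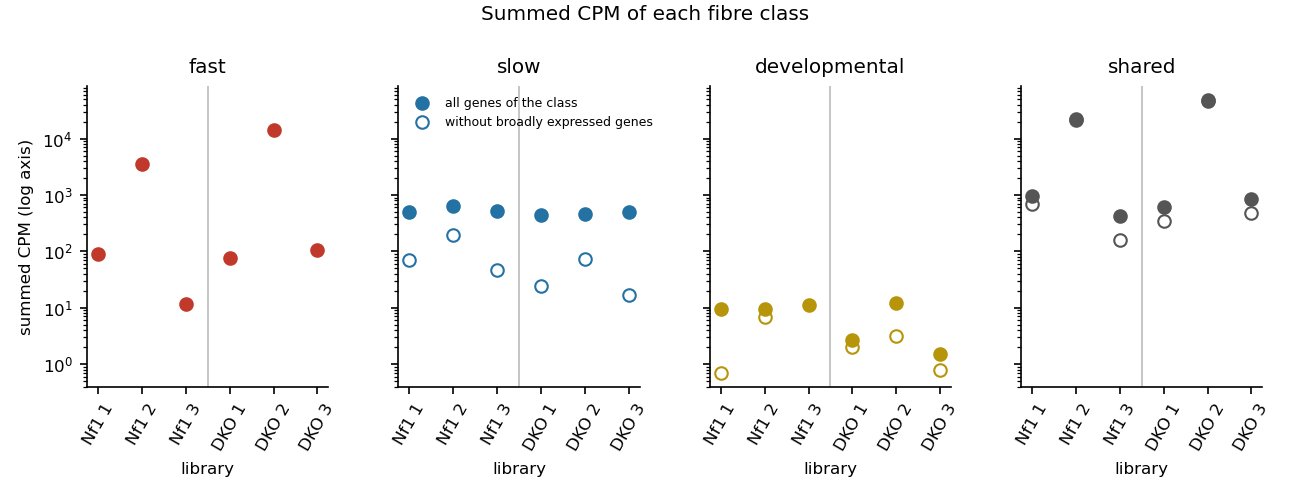
Summed CPM (log axis) of the genes of each fibre class in each library, with filled points for all genes of the class and open points without the broadly expressed genes Tpm1, Tpm2, Tpm3, Atp2a2, Des and Actc1. Fast genes reach 3565 CPM in Nf1 replicate 2 and 14295 CPM in DKO replicate 2, and the open developmental point of Nf1 replicate 3 is missing because its value is 0.

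The members of the fast class were compared with their slow counterparts within each library, where scaling plays no part. Among the myosin heavy chains, the motors of the thick filament, Myh4 (type 2B, the fastest) was at 6.86, 821 and 0 CPM in Nf1 and at 17.7, 8219 and 37.3 CPM in DKO. Myh1 (type 2X) was at 20.02, 658 and 0.32 CPM in Nf1 and at 9.31, 414 and 3.76 CPM in DKO. Myh2 (type 2A) was at 14.3, 426 and 0.19 CPM in Nf1 and at 2.95, 146 and 6.59 CPM in DKO. So the highest library was DKO replicate 2 for Myh4 but Nf1 replicate 2 for Myh1 and Myh2. Myh7, the slow myosin, was at 0.76, 14.5 and 0 CPM in Nf1 and at 0.16, 0.49 and 0 CPM in DKO, so that only Nf1 replicate 2, with 243 counts, held more than 11.

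Of the counts on these 4 genes and the developmental Myh3 and Myh8, Myh4 took 16.1%, 42.6% and 0% in Nf1 and 55.1%, 93.6% and 77.0% in DKO. The total was 615, 32373 and 8 counts in Nf1 and 403, 106913 and 734 counts in DKO. Nf1 replicate 3 therefore says little, and its 0 of 8 counts gives an exact interval of up to 36.9%. Myh1 took 47.0%, 34.1% and 62.5% in Nf1 and 29.0%, 4.71% and 7.77% in DKO. The share of Myh2 was 33.5%, 22.1% and 37.5% in Nf1 and 9.18%, 1.66% and 13.6% in DKO, and that of Myh7 was at most 1.79% in any library. The order of the fast myosins was thus Myh1, Myh2, Myh4 in Nf1 replicate 1, Myh4, Myh1, Myh2 in Nf1 replicate 2, DKO replicate 1 and DKO replicate 2, and Myh4, Myh2, Myh1 in DKO replicate 3. The Myh4 shares of the genotypes did not overlap, but no test was made of 3 against 3, where an exact permutation test could not give a p below 0.10, and the genes share sequence as shown above.

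**Figure D3:**
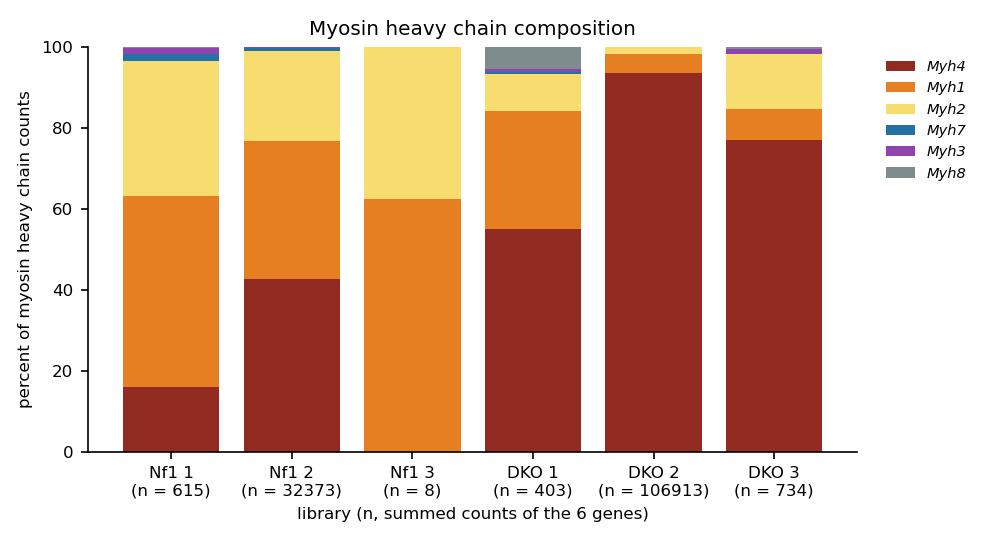
Percent of the summed counts of 6 myosin heavy chain genes taken by each gene (stacked bars) in each library, with the summed counts under each bar. Myh4 takes 93.6% in DKO replicate 2 and 42.6% in Nf1 replicate 2, and the bar of Nf1 replicate 3 rests on 8 counts.

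The myosin light chains, which bind the lever arm of the motor, were highest in DKO replicate 2 on the fast side. Myl1 was at 6.44, 171 and 2.63 CPM in Nf1 and at 8.52, 699 and 7.39 CPM in DKO. Mylpf was at 1.39, 40.8 and 2.11 CPM in Nf1 and at 0.72, 186 and 1.12 CPM in DKO. For both, Nf1 replicate 2 was next. Of the slow light chains, Myl2 was at 0.14, 6.78 and 0.064 CPM in Nf1 and at 0.080, 0 and 0.33 CPM in DKO, and Myl3 was at 0.71 CPM in Nf1 replicate 2, at 0.82 CPM in DKO replicate 2 and at 0 elsewhere. Thus Myl2 had 114 counts in Nf1 replicate 2 and 0 in DKO replicate 2, the library with the most muscle counts.

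Troponin, the calcium switch of the thin filament, has a fast and a slow form of each of its 3 subunits. The calcium-binding subunit Tnnc2 (fast) was at 0.90, 49.8 and 0 CPM in Nf1 and at 1.35, 231 and 1.58 CPM in DKO, and its slow form Tnnc1 was at 0, 1.43 and 0.51 CPM in Nf1 and at 0, 0.33 and 0 CPM in DKO. The inhibitory subunit Tnni2 (fast) was at 1.11, 54.6 and 0.32 CPM in Nf1 and at 1.19, 205 and 1.45 CPM in DKO. Its slow form Tnni1 was at 0.76, 4.70 and 0.705 CPM in Nf1 and at 0.72, 0.82 and 0.59 CPM in DKO, so that the slow form stood out in Nf1 replicate 2, with 79 counts, but not in DKO replicate 2, with 10 counts against 9 to 11 in the other 4 libraries. The tropomyosin-binding subunit Tnnt3 (fast) was at 6.37, 233 and 1.28 CPM in Nf1 and at 2.87, 715 and 6.20 CPM in DKO, and its slow form Tnnt1 was at 0.28, 5.95 and 0.705 CPM in Nf1 and at 0.72, 0 and 0 CPM in DKO.

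Summed over the 3 pairs, fast troponin counts were 8.07, 27.9 and 0.83 times the slow ones in Nf1 and 3.78, 1000.3 and 15.6 times in DKO. The exact 95% intervals were 4.70 to 14.9, 24.2 to 32.2 and 0.47 to 1.47 in Nf1 and 2.22 to 6.75, 596 to 1830 and 7.96 to 34.7 in DKO. The ratio of DKO replicate 2 rested on 14 slow counts, 0 of them from Tnnt1, for which 3 counts as a floor put Tnnt3 at least 2901-fold higher. DKO replicate 2 stood above and Nf1 replicate 3 below all other libraries beyond counting error.

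The calcium pump of fast fibres, Atp2a1 (SERCA1), was at 22.4, 880 and 1.15 CPM in Nf1 and at 14.1, 2310 and 18.9 CPM in DKO. Atp2a2 (SERCA2), the pump of slow fibres, heart and most other cells, was at 249, 275 and 257 CPM in Nf1 and at 318, 311 and 382 CPM in DKO. Atp2a1 had more counts than Atp2a2 in replicate 2 of each genotype only, at 3.20 and 7.43 times, and its ratio was between 0.0045 and 0.090 in the other 4 libraries. Of the calsequestrins, which store calcium in the sarcoplasmic reticulum, the fast form Casq1 was at 6.72, 37.7 and 2.11 CPM in Nf1 and at 4.14, 162 and 7.12 CPM in DKO. The slow and cardiac form Casq2 was at 62.3, 29.2 and 43.1 CPM in Nf1 and at 21.5, 10.8 and 14.0 CPM in DKO. It was lowest of its genotype in replicate 2 of each, the reverse of Casq1, and the genotypes did not overlap.

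Myosin-binding protein C binds the thick filament and tunes contraction. Its fast gene Mybpc2 was at 1.80, 85.9 and 0.19 CPM in Nf1 and at 1.91, 499 and 5.61 CPM in DKO, and its slow gene Mybpc1 was at 3.74, 112 and 0 CPM in Nf1 and at 0.56, 56.8 and 1.85 CPM in DKO. The slow gene had more counts than the fast one in Nf1 replicates 1 and 2 and fewer in all 3 DKO libraries. Myozenins anchor calcineurin at the Z-disc, and the fast gene Myoz1 was at 0.21, 18.7 and 0 CPM in Nf1 and at 0.80, 51.8 and 1.19 CPM in DKO. The slow gene Myoz2 was at 1.25, 16.5 and 1.35 CPM in Nf1 and at 0.88, 2.22 and 0.26 CPM in DKO. The ratio of Myoz1 to Myoz2 was 1.14 in Nf1 replicate 2 (95% interval 0.96 to 1.34) and 23.4 in DKO replicate 2 (15.9 to 35.7). Actn3, the fast form of the Z-disc crosslinker alpha-actinin, was at 2.49, 88.6 and 1.28 CPM in Nf1 and at 9.87, 457 and 5.34 CPM in DKO. Actn2, the form of all fibres, was at 3.33, 45.4 and 1.03 CPM in Nf1 and at 1.03, 26.7 and 3.43 CPM in DKO, higher in Nf1 replicate 2 than in DKO replicate 2.

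Over all fast and slow members, the ratio of fast to slow counts was 0.18, 5.55 and 0.022 in Nf1 and 0.17, 30.9 and 0.20 in DKO. Without Tpm3 and Atp2a2 it was 1.32, 18.6 and 0.25 in Nf1 and 3.06, 198 and 6.06 in DKO. Replicate 2 had the highest ratio of its genotype either way. The ratios of Nf1 replicate 1 and DKO replicate 1 were close to each other with Tpm3 and Atp2a2 (0.17 to 0.19 and 0.16 to 0.18) but not without them (1.21 to 1.43 and 2.69 to 3.50).

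None of the 3 developmental genes had replicate 2 of both genotypes as the 2 highest libraries, but Myh8 was highest in replicate 2 within each genotype. Embryonic myosin Myh3 was at 0.62, 5.06 and 0 CPM in Nf1 and at 0.24, 0.16 and 0.53 CPM in DKO, with 85 counts in Nf1 replicate 2 and 2 in DKO replicate 2. Perinatal myosin Myh8 was at 0.069, 1.73 and 0 CPM in Nf1 and at 1.75, 3.04 and 0.26 CPM in DKO, which is at most 37 counts. Cardiac actin Actc1, the main sarcomeric actin before birth, was at 8.66, 2.74 and 11.1 CPM in Nf1 and at 0.64, 9.12 and 0.73 CPM in DKO. Its lowest Nf1 library was replicate 2 whereas its highest DKO library was replicate 2. Acta1, the actin of adult skeletal muscle, was at 4.92, 178 and 0.064 CPM in Nf1 and at 5.02, 546 and 4.62 CPM in DKO, and outnumbered Actc1 65.0-fold (48.6 to 89.0) and 59.9-fold (49.7 to 72.9) in replicate 2 of Nf1 and DKO.

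The remaining shared genes kept the order in which DKO replicate 2 was highest and Nf1 replicate 2 next, apart from Mb and, as given above, Actn2. Creatine kinase Ckm, which buffers ATP, was at 3.26, 138 and 0.45 CPM in Nf1 and at 4.54, 640 and 4.62 CPM in DKO. Myoglobin (Mb), the oxygen store of oxidative fibres, was at 4.43, 85.2 and 3.20 CPM in Nf1 and at 0.88, 70.8 and 1.19 CPM in DKO, so that Nf1 replicate 2 was the higher of the pair. The tropomyosin Tpm1 was at 222, 328 and 229 CPM in Nf1 and at 236, 1090.5 and 317 CPM in DKO, the smallest excess in replicate 2 of the class at 1.43-fold and 3.44-fold over the next library of its genotype. The calcium release channel Ryr1, the intermediate filament Des, the Z-disc genes Myot, Ldb3 and Tcap, and Tpm2 ranged from 27.7 to 390 CPM in Nf1 replicate 2 and from 48.6 to 625 CPM in DKO replicate 2. Over the 13 shared genes, replicate 2 exceeded the next library of its genotype by a median of 23.5-fold in Nf1 and 67.8-fold in DKO, and over the fast genes by 36.0-fold (12 genes with more than 3 counts in the next library) and 88.9-fold.

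The libraries with the most muscle counts, Nf1 replicate 2 and DKO replicate 2, were then set side by side relative to Ttn, which was 2.24-fold higher in DKO replicate 2. This compares 2 libraries and not the genotypes. Relative to Ttn, Myh4 was 4.46 times as high in DKO replicate 2 (95% counting interval 4.38 to 4.54), Mybpc2 2.59 (2.44 to 2.74), Actn3 2.30 (2.17 to 2.44) and Ckm 2.07 (1.98 to 2.17). Nebulin was at 0.98 (0.97 to 0.99) and Des at 0.95 (0.89 to 1.01), close to Ttn itself. Lower relative to Ttn were Mb at 0.37 (0.34 to 0.40), Myh1 at 0.28 (0.27 to 0.29), Actn2 at 0.26 (0.23 to 0.30), Mybpc1 at 0.23 (0.21 to 0.25), Myh2 at 0.15 (0.15 to 0.16), Tnni1 at 0.078 (0.036 to 0.15), Myoz2 at 0.060 (0.039 to 0.089) and Myh7 at 0.015 (0.0055 to 0.034). Of the fast genes, 11 of 13 were above the ratio of Ttn, with Myh1 and Myh2 as the exceptions. Of the 39 genes other than Ttn, 16 were above it beyond counting error, 20 below and 3 within. Those below include Tpm3, Atp2a2 and Casq2 (0.20, 0.50 and 0.16), which did not peak in replicate 2 of both genotypes. This split therefore does not measure fibre make-up alone.

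**Figure D4:**
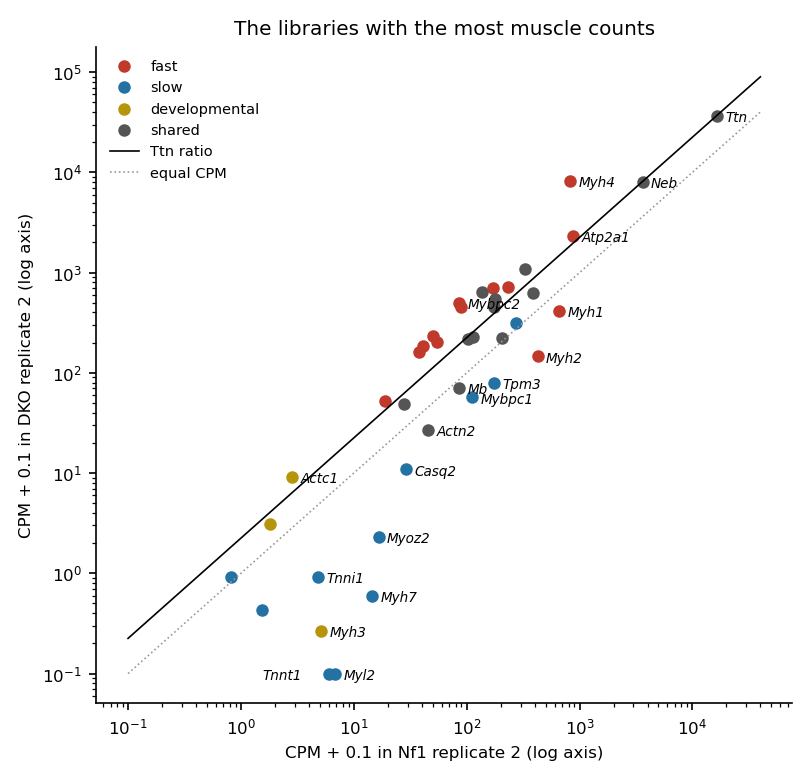
CPM + 0.1 of the 40 muscle genes in Nf1 replicate 2 (x axis) and DKO replicate 2 (y axis), both on log axes, with a solid line at the ratio of Ttn (2.24) and a dotted line at equal CPM. Fast genes other than Myh1 and Myh2 lie above the solid line, and slow genes lie below it.

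Between genotypes, 2 of the 35 tested muscle genes passed the thresholds of the study (adjusted p below 0.05 and more than 2-fold, limma-voom with Benjamini-Hochberg adjustment over all genes), and both were lower in DKO. Among all genes tested, 13.4% passed, and 5.36% passed and were lower in DKO. The share of the muscle genes was thus below the background in either direction together and near it for lower genes. Myh7, Myl2, Myl3, Tnnc1 and Myh3 did not pass the filter on low counts.

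Tpm3, a tropomyosin of slow fibres and of the cytoskeleton, was at 184, 176 and 221 CPM in Nf1 and at 96.9, 79.7 and 107 CPM in DKO. It fell by 1.04 on the log2 scale (95% interval -1.40 to -0.67, adjusted p = 0.0111). Casq2 fell by 1.52 (-2.37 to -0.67, adjusted p = 0.0295). For neither gene was replicate 2 the highest library of its genotype. Tpm3 passed in 4 of the 6 fits that left out 1 library, and not without Nf1 replicate 3 (-0.90) or DKO replicate 2 (-0.92). Casq2 passed in 2 of 6, and not without Nf1 replicate 1 (-1.22), Nf1 replicate 3 (-1.47), DKO replicate 2 (-1.30) or DKO replicate 3 (-1.47), the library with high Runx1.

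Another slow gene without overlap between genotypes was Atp2a2, with a log2 fold change of 0.37 (0.08 to 0.66, adjusted p = 0.077). These 3 genes were the only members whose genotypes did not overlap, whereas 42.3% of all genes tested did not overlap. The median log2 fold change was -1.04 over the 7 slow genes tested, against 1.15 for the 13 fast genes, 0.31 for the 13 shared genes and 0.02 for all genes. None of the fast or shared genes passed the thresholds, and 0 of these 26 had an unadjusted p under 0.05.

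For the members that followed Ttn, the libraries set wide limits. Ttn had a log2 fold change of 0.65 between genotypes (-4.95 to 6.24, adjusted p = 0.879), and Myh4 had 4.79 (-5.16 to 14.7, adjusted p = 0.463). With 1 library left out, Myh4 was between 1.16 (without Nf1 replicate 3) and 8.62 (without Nf1 replicate 2). The intervals of the 35 genes were 0.58 to 19.9 wide on the log2 scale, with a median of 10.1 against 1.24 for all genes tested. Intervals of 32 genes held 0, and those of 26 reached beyond 4-fold in both directions. For these 26 genes, a 4-fold difference between the genotypes in either direction was thus within the limits of the libraries.

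**Figure D5:**
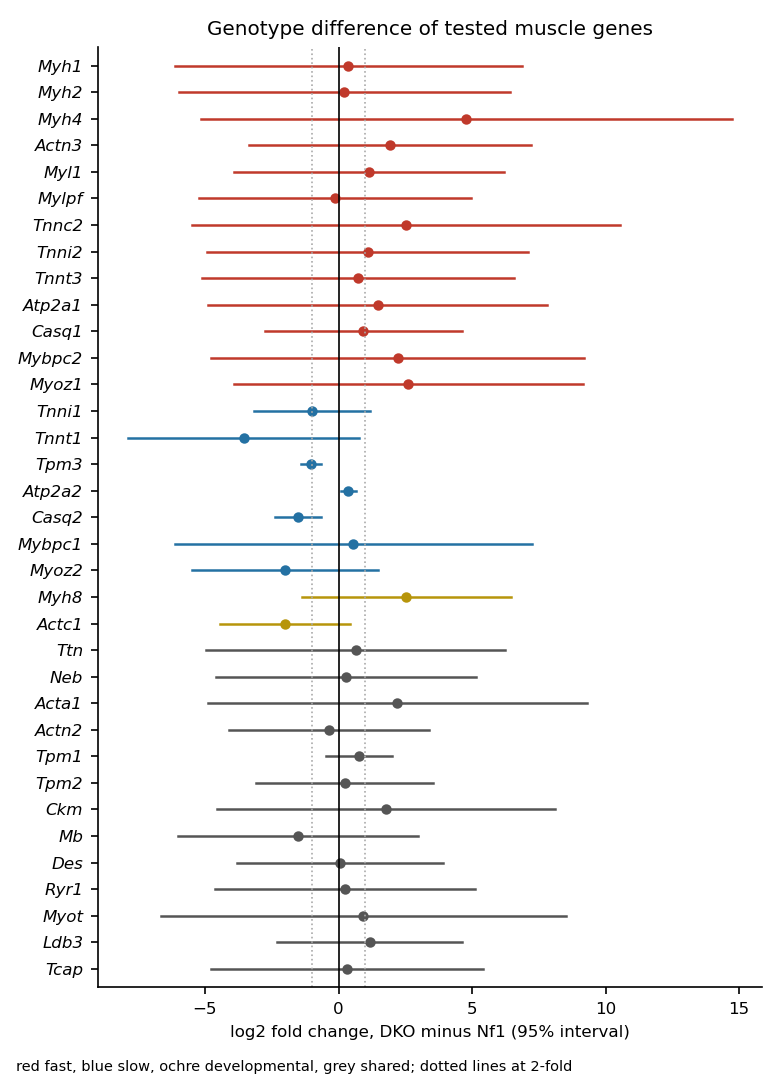
Log2 fold change (DKO minus Nf1) of the 35 tested muscle genes, with points for the estimate, lines for the 95% interval and dotted lines at 2-fold in either direction. Tpm3 (-1.04), Casq2 (-1.52) and Atp2a2 (0.37) are the only genes whose interval leaves out 0.

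Leaving out replicate 2 of both genotypes, a fit added after the data were seen, left 34 muscle genes to test. Casq2 and Actc1 passed, both lower in DKO, against 11.1% of all genes. Tpm3 was at -0.97, just under 2-fold. Actc1 was at -3.76 (-5.26 to -2.26, adjusted p = 0.0208), against -1.996 (-4.44 to 0.45, adjusted p = 0.216) with all 6 libraries. In replicates 1 and 3, Actc1 had 125 and 173 counts in Nf1 and 8 and 11 in DKO. It thus passed the filter on low counts in this fit through Nf1, where it was high, which leaves its p without weight. Of the fast and shared classes, 0 of 26 genes passed in this fit, and 5 had an unadjusted p under 0.05. In the fast class these were Myh4 at 5.90 (1.16 to 10.6, adjusted p = 0.101), Actn3 at 1.99 (0.53 to 3.45, adjusted p = 0.0821) and Myoz1, all higher in DKO. Myoz1 had 3 and 0 counts in Nf1 replicates 1 and 3. Myh4 had 99 and 0 counts there, against 222 and 565 in DKO replicates 1 and 3. Myoz1 and Myh4 thus passed the filter on low counts through DKO, where they were high, which leaves their p without weight. In the shared class they were Ldb3 at 1.43 (0.34 to 2.52, adjusted p = 0.0889) and Mb at -1.81 (-3.21 to -0.41, adjusted p = 0.0919). Over all members, Myoz1, Myh4 and Actc1 included, 9 of 34 had an unadjusted p under 0.05, against 3 of 35 with all 6 libraries. The share of all genes under this threshold was not counted in either fit. Neither these counts nor the 5 genes above can thus be read against a background.

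Markers of other cell types moved with the genotypes. Among all 15652 genes tested, 839 were called lower in DKO (5.36%) and 1257 were called higher. Fibroblast markers summed to 9166, 9834 and 9572 CPM in Nf1 and to 5594, 3374 and 3799 CPM in DKO, with 4 of 6 genes called lower. Those of macrophages summed to 606, 364 and 838 CPM in Nf1 and to 182, 81.4 and 150.1 CPM in DKO, with 4 of 5 genes called lower. Sensory neuron markers summed to 147, 389 and 121 CPM in Nf1 and to 796, 902 and 1687 CPM in DKO, with 9 of 9 called higher. Their part in the lower Tpm3, Casq2 and Actc1 was not tested. Markers of heart muscle (Myh6, Nppa, Nppb, Tnni3, Tnnt2, Mybpc3, Myl7 and Myl4) summed to 24.3, 10.7 and 29.1 CPM in Nf1 and to 16.9, 15.3 and 19.5 CPM in DKO, with no excess in replicate 2. In this list Tnnt2, the cardiac troponin T, was at 5.54, 0.95 and 7.50 CPM in Nf1 and at 0.32, 1.23 and 0.066 CPM in DKO, and like Actc1 was lowest in replicate 2 of Nf1 and highest in replicate 2 of DKO. Smooth muscle genes summed to 299, 266 and 275 CPM in Nf1 and to 303, 394 and 221 CPM in DKO. Of these, 1 of 9 was called, Smtn, and it was higher in DKO.

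Other genes of skeletal muscle, 75 in 6 lists, were looked at in the same libraries, and counts of called genes in them stand against the 13.4% of all genes tested that passed. In the myogenic regulators of satellite cells and myoblasts, 0 of 3 tested genes passed. Pax7, the satellite cell factor, was at 0.30 CPM in Nf1 replicate 2, 0.66 CPM in DKO replicate 2 and 0 elsewhere, and Myod1, Myf5 and Myog were at or below 0.42 CPM in every library. Myf6, the regulator kept on in adult fibres, was at 2.74 CPM in Nf1 replicate 2 and 1.64 CPM in DKO replicate 2 and at 0 in the other 4. Tmem8c, the fusion protein of myoblasts, was at most 0.41 CPM. Pax7, Myf5, Myod1 and Myog had at most 8 counts in any library. Cdh15, a cadherin of satellite cells and myoblasts, was at 0, 0.89 and 0.32 CPM in Nf1 and at 0.56, 1.89 and 2.84 CPM in DKO, and was highest in DKO replicate 3, where Ttn was low. Vgll2 was at 0.97, 3.87 and 0 CPM in Nf1 and at 0.24, 1.23 and 0.13 CPM in DKO, and Eya4 at 3.33, 4.94 and 5.57 CPM in Nf1 and at 8.68, 23.2 and 5.14 CPM in DKO. The genes of this list thus did not share 1 order of libraries.

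At the neuromuscular junction, 1 of 6 tested genes passed. Lrp4, the agrin receptor, was at 118, 183 and 94.0 CPM in Nf1 and at 43.1, 37.5 and 52.3 CPM in DKO, and fell by 1.53 on the log2 scale (-2.17 to -0.88, adjusted p = 0.0147). Lrp4 was highest in Nf1 replicate 2 but lowest in DKO replicate 2, the library with the most muscle counts, and so did not follow Ttn. Its call was lost without Nf1 replicate 1 (-1.55, adjusted p = 0.0567) or DKO replicate 2 (-1.41, adjusted p = 0.0507). Of the acetylcholine receptor subunits, Chrna1 was at 14.7, 12.97 and 13.5 CPM in Nf1 and at 12.6, 16.7 and 13.8 CPM in DKO, with replicate 2 close to the others. Chrnb1 was between 10.1 and 23.2 CPM, Chrne between 0.064 and 4.27 CPM, Chrnd at 0.95 CPM in Nf1 replicate 2, 0.41 CPM in DKO replicate 2 and 0 elsewhere, and Chrng at most 0.25 CPM. The adult subunit Chrne and the junctional kinase gene Musk were highest in DKO replicate 2.

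In the sarcolemma list 1 of 6 tested genes passed. Dysf, a membrane repair protein also made by other cells, was at 10.3, 14.3 and 12.3 CPM in Nf1 and at 25.6, 38.8 and 40.8 CPM in DKO. It rose by 1.49 on the log2 scale (0.91 to 2.07, adjusted p = 0.0127), with its call lost without Nf1 replicate 1 (adjusted p = 0.0566). Of excitation-contraction coupling, sarcomere accessory and muscle metabolism genes, 0 of 11, 0 of 18 and 0 of 14 tested genes passed. Replicate 2 of the genotypes were the 2 highest libraries for 9 of 11, 17 of 18 and 9 of 14 tested genes of these lists, and for 1 of 3 myogenic regulators, 2 of 6 neuromuscular junction genes and 2 of 6 sarcolemma genes tested, against 4.29% of all genes tested. All lists were chosen with earlier results of these data known, so these counts describe them and are no test. Cryab, a heat shock protein of many tissues, was the exception among the 18. Xirp2, an actin-binding protein of striated muscle, was at 32.9, 974 and 1.41 CPM in Nf1 and at 11.1, 1383 and 19.8 CPM in DKO. Lmod2, an actin nucleator of the thin filament, was at 124 CPM in Nf1 replicate 2 but 13.5 CPM in DKO replicate 2 and at most 2.15 CPM elsewhere.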

How the data were processed

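RNA of 6 samples was amplified with the Ovation RNA-Seq System v2 and prepared with Nextera XT. Per the paper's methods and the submitters' processing notes, the authors aligned paired-end reads to mm10 with TopHat and deposited raw counts per gene from featureCounts. The annotation, strandedness and treatment of reads with several alignments were not given in the sources used here. Replicate numbers follow the order of the labels and pair nothing.

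Counts were analysed with R 4.3.3, edgeR 4.0.16 and limma 3.58.1, and with DESeq2 1.42.0 as an alternative. The filter on low counts was filterByExpr with a minimum count of 10 and a minimum total of 15, and limma-voom used TMM factors and genotype as its single term. This fit was first tested on simulated data. CPM are TMM-scaled. Class sums, ratios and shares were described per library, with exact binomial intervals at 95%. Alternatives were other tools, scalings, filters and left-out libraries. Gene positions and exon lengths came from GENCODE M21 (GRCm38), and shared sequence was counted in windows of 50 bases.

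The members and all lists were chosen with earlier results of these data known. Per-library values were given for Ttn, for fast and slow members of 1 protein family, for developmental members and for called members, and the rest by range or as chosen after their values were seen. Among other muscle lists, called genes, myogenic regulators and receptor subunits were named. Xirp2, Lmod2, Cryab, Musk, Tnnt2, Ckm, Mb, Actn2, Actn3, Ldb3, Neb and Tpm1 were named after their values were seen. Adgre1 was not used here.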

Additional observations from a re-analysis of the deposited data

How the results depend on the processing

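Both called muscle genes, Tpm3 and Casq2, were called under each of the other tools, scalings and filters, where Tpm3 was between -1.11 and -1.03 and Casq2 between -1.71 and -1.52. DESeq2 gave an adjusted p to 12 of the 40 genes. With 1 library left out, 0 to 2 muscle genes and 0 to 4 of the other muscle genes were called, and the median log2 fold change of the members ranged from -1.19 to 2.70. Calls among all genes in those fits ranged from 362 of 16031 (without Nf1 replicate 1) to 2285 of 15943 (without Nf1 replicate 2). In those fits Ttn ranged from -1.69 to 2.78, its sign turning without Nf1 replicate 3 (-0.99) or DKO replicate 2 (-1.69), and Tpm3 from -1.13 to -0.90, Casq2 from -1.76 to -1.22, Lrp4 from -1.70 to -1.21 Dysf from 1.36 to 1.74, Myh4 from 1.16 to 8.62 and Actc1 from -3.13 to -1.36. Of other muscle genes, 5 of 45 tested were called by DESeq2 and 4 of 58 with sample quality weights. By unadjusted p 5 of 58 were called and by edgeR quasi-likelihood 3 of 58, against 2 of 58 by limma-voom as reported. Among all genes tested, these settings called 2970 of 17944, then 2512, 2978 and 2264 of 15652, against 2096 of 15652 by limma-voom. Cause was not tested.

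Without broadly expressed genes, the slow sum was 69.2, 192 and 46.4 CPM in Nf1 and 24.6, 72.3 and 17.1 CPM in DKO, and the developmental sum was 0.69, 6.78 and 0 CPM in Nf1 and 1.99, 3.20 and 0.79 CPM in DKO. The ratio of fast to slow counts was 8.07 and 27.9 in Nf1 replicates 1 and 2 and 1000.3 in DKO replicate 2 from troponins alone, and 18.6 and 198 in both replicates 2 without Tpm3 and Atp2a2. No paired analysis was possible because each library has its own number and none is shared between genotypes. Depth limits the slow and developmental genes, several of which had under 12 counts in most libraries.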

Other observations

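Fat and muscle genes did not share their order of libraries. Adipocyte markers summed to 417, 35.9 and 385 CPM in Nf1 replicates 1, 2 and 3 and to 1739, 2053 and 167 CPM in DKO replicates 1, 2 and 3, so that replicate 2 was the lowest Nf1 library and the highest DKO library. Ucp1, the uncoupling protein of brown fat, was at 99.8, 1.90 and 103 CPM in Nf1 and at 407, 837 and 23.0 CPM in DKO. Of the 8 genes, 0 passed the thresholds (limma-voom), against 13.4% of all genes tested, and 0 had an unadjusted p under 0.05.

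Among the muscle metabolism genes, 5 of 14 did not have replicate 2 of the genotypes as the 2 highest libraries, namely Cox7a1, Cox8b, Fabp3, Gys1 and Car3. Car3, a carbonic anhydrase of slow muscle and fat, was at 338, 71.1 and 332 CPM in Nf1 and at 1337, 935 and 144 CPM in DKO. Cox8b, a subunit of cytochrome oxidase in muscle and brown fat, was at 7.21, 4.94 and 5.13 CPM in Nf1 and at 30.4, 57.7 and 2.04 CPM in DKO. In both genes DKO replicate 3 was the lowest DKO library, as it was for adipocyte markers.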
